A study of Mus musculus with 12 samples.

Results

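Regulatory T cells in the S or G2M phase of the cell cycle were the cells that the deposited cell table placed in cluster 2 with a phase of S or G2M. They numbered 1320, of 4598 cells of cluster 2 and 30749 cells in all. Of the 1320 cells, 702 were in S and 618 in G2M, and they are called cycling regulatory T cells here. The other 3278 cells of cluster 2 were in G1.

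Regulatory T cells are CD4 T cells that carry the transcription factor Foxp3 and restrain other T cells. In tumours they are often activated and divide, and they hold back the response to checkpoint blockade. A dividing cell copies its DNA in S phase with the MCM helicase, PCNA and newly made histones, and separates the copies in mitosis with the spindle, driven by cyclin B and the kinase Cdk1.

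All mice were C57Bl/6 that had received 300000 cells of MCA205, a transplantable mouse fibrosarcoma line, under the skin. Every mouse was given 10 mg/kg oxaliplatin, a platinum drug, on day 8, and 200 µg of anti-PD1 antibody 8 days after that. The 3 anti-ACBP mice also received 2.5 mg/kg of an antibody that neutralizes acyl-CoA binding protein (ACBP, encoded by Dbi), and the 3 isotype mice an IgG2a control antibody, each given at intervals of 2 days from 2 days before oxaliplatin until the day before anti-PD1. Tumour T cells were sorted 2 days after anti-PD1, mixed at equal numbers of CD4 and CD8 cells and read as 5' single-cell expression and T cell receptor libraries, so shares of all T cells were set by the mixing and are not given.

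The isotype mice 1, 2 and 3 gave 469, 260 and 308 cycling regulatory T cells, and the anti-ACBP mice 1, 2 and 3 gave 151, 84 and 48. Summed over these cells, depth ran from 463800 UMIs (unique molecules counted) in anti-ACBP mouse 3 to 8419310 in isotype mouse 1, and genes of low level were measured least precisely in the former. That library also stood apart, with correlations to the others of 0.930 to 0.933 on log CPM against 0.959 to 0.985 among the other 5. Of the cycling cells 40 carried a barcode sequence also used by a cell of another library, as did 1078 of all cells. Median UMIs per cycling cell were 16760, 7430 and 8160 in the isotype and 6748, 13290 and 6680 in the anti-ACBP mice, and the groups overlapped (exact two-sided permutation test, p = 0.5; 3 mice against 3 cannot give a p below 0.1).

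The regulatory T cell markers were present. Foxp3 UMIs were found in 86.4% of cycling regulatory T cells, against 0.702% of CD8 cells of cluster 0 in S or G2M. After every cell was thinned to 2000 UMIs these shares were 53.7% and 0.276% (median depth before thinning 10920 and 5688 UMIs). Helios (Ikzf2) was found in 91.9% and the interleukin-2 receptor chain Il2ra in 94.1% of the cycling regulatory T cells. In cycling CD4 cells of cluster 4, taken with more Cd4 than Cd8 UMIs and no Foxp3 UMI, they were found in 30.8% and 55.9%. Ctla4, Tnfrsf18 and Capg separated these classes less, at 86.97%, 98.48% and 97.35% against 89.82%, 95.82% and 83.55%. After thinning, Ctla4, Tnfrsf18 and Capg were at 73.95%, 82.81% and 80.87% against 53.14%, 59.95% and 39.79%. The phase was called from cycle genes, so the proliferation antigen Mki67 and the microtubule regulator Stmn1 describe the call and do not check it: after thinning, Mki67 was found in 44.2% of cycling and 4.67% of G1 regulatory T cells, and Stmn1 in 46.2% and 3.02%. Of markers of other cells, the B cell gene Ms4a1, the macrophage gene C1qa, the stromal gene Sparc and the natural killer cell gene Ncr1 were at 0 UMIs. Their companions Cd79a, Lyz2, Csf1r, Col1a1 and Klrb1c were found in 0.606%, 0.152%, 0.227%, 0.227% and 0.0758% of cycling cells. The summed level of 21 myeloid genes, 9 of them at 0, was 444 to 663 CPM in the isotype and 474 to 621 CPM in the anti-ACBP mice, and that of 10 tumour and stroma genes, 5 at 0, was 631 to 885 and 616 to 810 CPM.

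The phase call was checked against the deposited S and G2M scores: all 4598 cells followed the rule that the larger score exceeds 0. The cut ran through many cells, with 333 members at scores of 0 to 0.05 and 1307 G1 cells at -0.05 to 0. After thinning, Mki67 was found in 5.67% of those 333 members and in 5.90% of the 1307 G1 cells just outside. The 749 members with a score over 0.2 had Mki67 in 67.6% after thinning and a median of 15120 UMIs. Cells at 0.05 or less made up 14.5%, 28.1% and 24.0% of the members in the isotype mice and 47.7%, 29.8% and 43.8% in the anti-ACBP mice, so the groups did not overlap (exact permutation test, p = 0.1). For named genes, calls that ended with scores over 0.2 are given with their fold changes.

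A smaller part of the regulatory T cells was in S or G2M with anti-ACBP. The share was 35.0%, 30.0% and 34.6% of regulatory T cells in the isotype mice and 21.5%, 17.8% and 14.7% in the anti-ACBP mice. Every anti-ACBP mouse lay below every isotype mouse, and the means were 33.2% ± 2.8 and 18.0% ± 3.4 (SD, n = 3; exact two-sided permutation test, p = 0.1, the smallest it can give, and 0.4 after adjustment over the 4 comparisons of this share, the G2M share, expanded clones and depth). The exact binomial 95% intervals, which cover counting error only, ran from 26.95% to 37.8% over the isotype mice and from 11.1% to 24.7% over the anti-ACBP mice. The S share was 17.4% ± 1.1 against 10.7% ± 2.1 (SD, n = 3) and the G2M share 15.8% ± 3.9 against 7.35% ± 1.64 (SD, n = 3), neither with overlap between groups (exact permutation tests, p = 0.1 each).

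**Figure D1:**
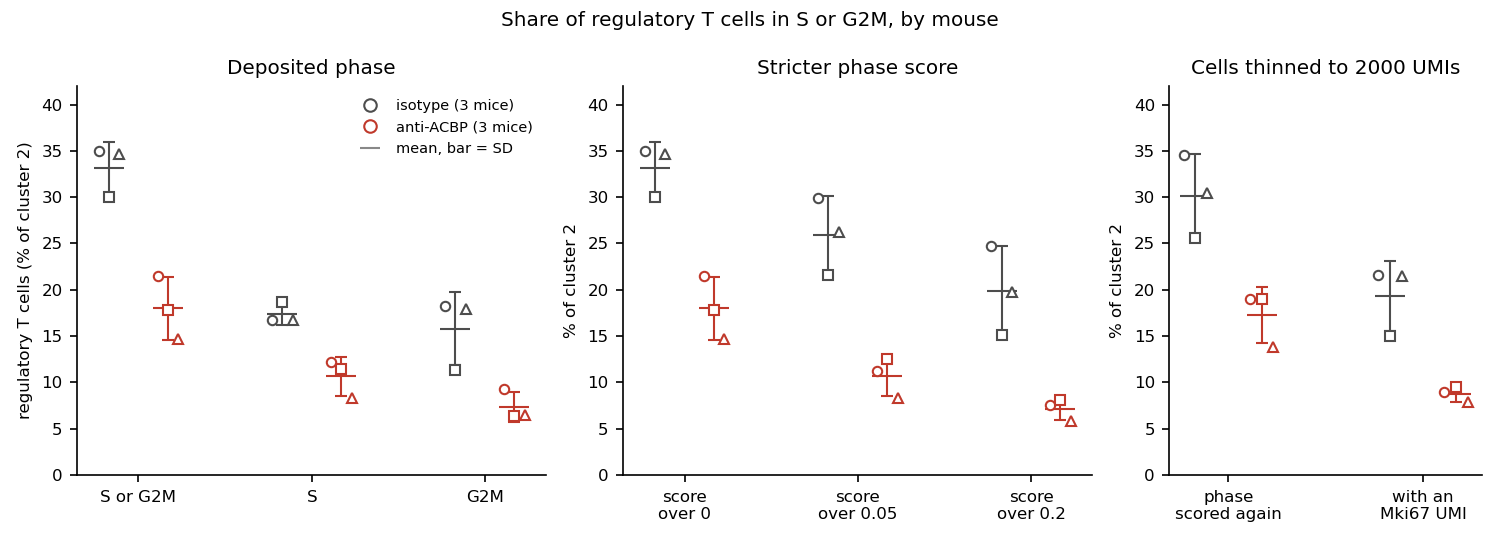
Share of cluster 2 cells in S or G2M in each of 6 mice (y axis, percent; symbols are mice, horizontal marks means, bars SD) by the deposited phase, by stricter cuts of the phase score, and after thinning each cell to 2000 UMIs. In every column the 3 anti-ACBP mice lie below the 3 isotype mice.

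The lower share was also present where cells at the cut were removed. With a score over 0.2 the shares were 24.8%, 15.1% and 19.8% in the isotype mice and 7.54%, 8.07% and 5.83% in the anti-ACBP mice. When the phase was scored again on cells thinned to 2000 UMIs, they averaged 30.2% ± 4.5 and 17.3% ± 3.0 (SD, n = 3). The share of regulatory T cells with an Mki67 UMI after thinning was 21.6%, 15.0% and 21.5% against 8.93%, 9.48% and 7.86%, again without overlap (exact permutation test, p = 0.1). Among the cycling cells themselves, G2M made up 52.2%, 37.7% and 51.6% in the isotype and 43.1%, 35.7% and 43.8% in the anti-ACBP mice. These overlapped (exact permutation test, p = 0.3), and the difference of means turned from -6.35 to 1.16 percentage points when phases were scored again on thinned cells.

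The receptor table showed which T cell clones divided. A clone was taken as the regulatory T cells of a mouse with the same TRB V gene and CDR3 nucleotide sequence, in cells with 1 TRB chain. The 824 cycling cells with such a receptor belonged to 432 clones, and 15 of them had a receptor also found in another mouse. The CDR3 of the clone with most cycling cells in each mouse is printed to show that a different receptor led in every mouse. Lower case marks the ends shared by at least 70% of receptors with the same V or J gene, and capitals the stretch between them.
isotype 1, TRBV5 and TRBJ2-3: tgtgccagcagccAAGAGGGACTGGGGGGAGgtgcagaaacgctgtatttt
isotype 2, TRBV13-1 and TRBJ2-2: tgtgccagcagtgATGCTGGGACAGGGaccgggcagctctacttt
isotype 3, TRBV12-2+TRBV13-2 and TRBJ2-3: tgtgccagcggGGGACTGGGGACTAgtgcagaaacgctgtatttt
anti-ACBP 1, TRBV19 and TRBJ2-1: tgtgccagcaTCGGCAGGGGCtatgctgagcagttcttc
anti-ACBP 2, TRBV13-1 and TRBJ1-4: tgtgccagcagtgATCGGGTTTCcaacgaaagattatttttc
anti-ACBP 3, TRBV3 and TRBJ1-1: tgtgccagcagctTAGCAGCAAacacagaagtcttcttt

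The first of these clones had 59 of its 113 regulatory T cells in S or G2M (52.2%), and the isotype 2 and 3 clones 13 of 32 (40.6%) and 19 of 42 (45.2%). The anti-ACBP clones had 25 of 165 (15.2%), 7 of 29 (24.1%) and 3 of 16 (18.8%). The leading clone was thus large in anti-ACBP mouse 1 also, but a smaller part of it was cycling. These 6 clones were chosen for their number of cycling cells, so their values are a description. The last receptor was the only one of the 6 found in another mouse.

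Division in expanded clones, those of 2 or more regulatory T cells, followed the same order. In such clones 36.2%, 29.0% and 37.3% of cells were cycling in the isotype mice and 18.0%, 18.4% and 16.3% in the anti-ACBP mice, with no overlap (34.1% ± 4.5 and 17.6% ± 1.1, SD, n = 3; exact permutation test, p = 0.1). In single-cell clones the shares were 25.4%, 21.5% and 29.9% against 20.6%, 22.5% and 19.8%, and the groups overlapped (exact permutation test, p = 0.2). Within each mouse, the share in expanded minus that in single-cell clones was 10.8, 7.48 and 7.37 percentage points in the isotype mice and -2.64, -4.14 and -3.46 in the anti-ACBP mice. The difference was positive in every isotype and negative in every anti-ACBP mouse (8.57 ± 1.98 and -3.41 ± 0.75, SD, n = 3; exact permutation test, p = 0.1), a comparison chosen after the values were seen. Over all 6 mice it averaged 2.58 ± 6.70 percentage points (SD, n = 6; exact sign-flip test, p = 0.375). Clone size in these comparisons was not adjusted for the number of regulatory T cells sampled per mouse.

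Seen from the cycling cells, 82.4%, 81.6% and 71.2% sat in expanded clones in the isotype mice and 71.9%, 62.1% and 57.5% in the anti-ACBP mice (exact permutation test, p = 0.2). More regulatory T cells were sampled in the isotype mice, and with each mouse thinned to 227 cells the means were 65.0% ± 8.6 and 60.1% ± 5.2 (SD, n = 3; exact permutation test, p = 0.7). Among G1 cells the shares were 70.8% ± 6.0 and 68.7% ± 6.1 (SD, n = 3).

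**Figure D2:**
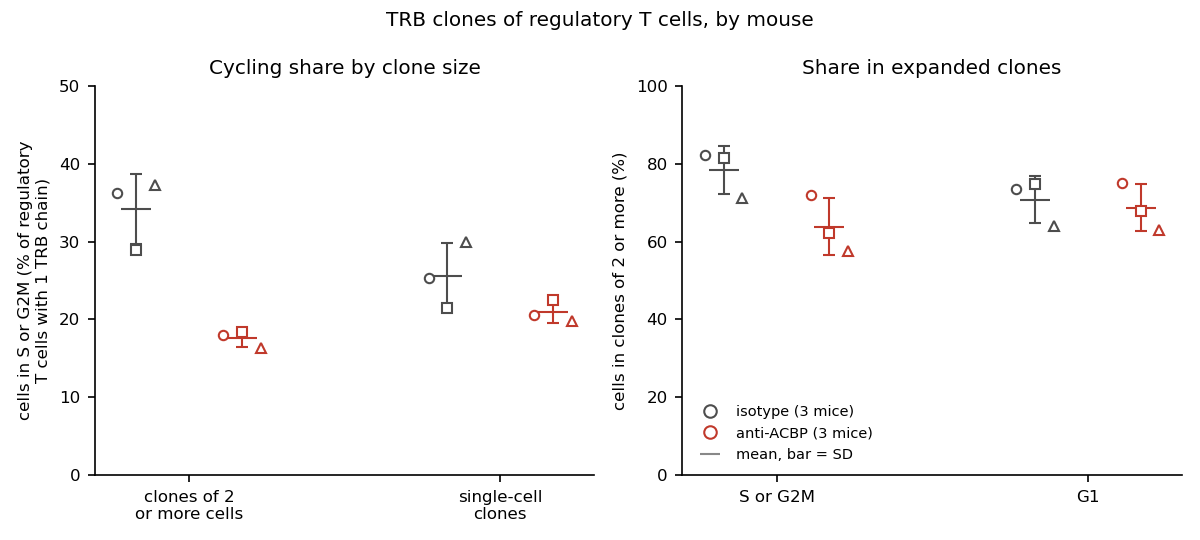
Left, percent of regulatory T cells in S or G2M among cells of expanded and of single-cell TRB clones; right, percent of cycling and of G1 cells that sit in expanded clones (symbols are 6 mice, horizontal marks means, bars SD). In expanded clones the anti-ACBP mice (16.3% to 18.4%) lie below the isotype mice (29.0% to 37.3%), while the groups overlap in single-cell clones.

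The cycling cells carried genes of both DNA replication and division. Phases were called from such genes, so their levels are described without a test, as log2 ratios of CPM (counts scaled to a common library total, with 1 CPM added) of cycling over G1 regulatory T cells, mean ± SD over the 6 mice. All 59 DNA replication genes with at least 10 CPM were above their G1 level, with a median of 2.61. Mcm5, a helicase subunit, was 3.55 ± 0.34 higher and Pcna, the sliding clamp, 1.98 ± 0.11. All 76 spindle and division genes at that level were higher (median 3.55), among them Mki67 (4.19 ± 0.36), the DNA-untangling enzyme Top2a (3.85 ± 0.38), Stmn1 (4.54 ± 0.33) and Birc5, a chromosomal passenger protein (6.03 ± 0.55). Ccna2, the cyclin of S and G2, was 6.11 ± 0.27 higher. Ran, the GTPase that drives nuclear transport and spindle assembly, differed less, by 1.34 ± 0.19. Against the cycling CD4 cells of cluster 4 with no Foxp3 UMI, 0 of the 76 spindle and division genes were higher (median log2 ratio -0.82). Of 26 G2M control genes 0 were higher (median -0.72), and of the 59 DNA replication genes 12 were (median -0.29).

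Within the cycling cells the S and G2M labels separated these genes. The labels were called from such genes, so the levels describe the labels and do not check them. Mcm6 stood at 399.5 ± 33.9 CPM in S and 192 ± 22.4 CPM in G2M (SD, n = 6), and was lower in G2M in all 6 mice. Ccnb1, cyclin B1, stood at 17.7 ± 4.4 CPM in S and 90.8 ± 19.97 CPM in G2M, and Ube2c, a ubiquitin enzyme of mitotic exit, at 36.2 ± 8.9 and 447 ± 82 CPM. Of 20 replication histone genes, 19 were higher in G2M than in S. Histone genes are read here as UMIs of near-identical copies, so single members are uncertain.

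Genes of regulatory T cell identity took a smaller share of the UMIs in cycling than in G1 cells. Of 39 such genes, 38 had a ratio below 0 (median -0.44), among them Foxp3 (-0.44 ± 0.18), Icos (-0.64 ± 0.13), Tigit (-0.74 ± 0.19) and the cytokine gene Il10 (-1.49 ± 0.36). Batf, a transcription factor of activated regulatory T cells, was the exception (0.11 ± 0.13). Dbi, the gene of the targeted protein, was higher in cycling cells in 6 of 6 mice (1.11 ± 0.16), at 149 ± 23 CPM in G1, 326 ± 28 CPM in S and 311 ± 25 CPM in G2M (SD, n = 6).

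The promoters of division genes are known for 2 short elements, the cell cycle homology region TTTGAA and the CCAAT box, searched here on both strands in RefSeq windows of GRCm38.p6 from 250 bases before to 50 after each start. TTTGAA was found for 44 of 70 spindle and division genes with a window (62.9%), against 14.5% of the 7189 tested genes with one, and CCAAT for 47 of 70 (67.1%) against 43.2%. The Top2a promoter, chr11:99024240-99024429 on the minus strand, is shown because Top2a marks dividing cells and holds 6 CCAAT boxes, in capitals as CCAAT or its complement ATTGG.
Top2a: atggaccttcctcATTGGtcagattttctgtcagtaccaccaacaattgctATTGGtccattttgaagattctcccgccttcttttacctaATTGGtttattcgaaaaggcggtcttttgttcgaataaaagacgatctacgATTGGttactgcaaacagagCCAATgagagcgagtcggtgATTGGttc

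Between the treatment groups, 50 of 8973 genes tested differed in cycling regulatory T cells (0.557%), of which 41 (0.457%) were higher and 9 (0.1%) lower with anti-ACBP (edgeR quasi-likelihood test on UMIs summed per mouse, adjusted p under 0.05). Of the 9 that fell, 5 were genes of glycolysis and low oxygen, and of the 41 that rose, 4 were cytokine feedback and 3 early activation genes. In all 50 the groups did not overlap, as was so for 14.8% of all genes tested. The count rested on single mice: it was 25 without isotype mouse 3, 117 without isotype mouse 2, 32 without anti-ACBP mouse 1 and 33 without anti-ACBP mouse 3. Of the 50 genes, 15 passed whichever mouse was left out, among them Ddit4, Tpi1, Hilpda, Socs1, Lgals3, Lmna, Irgm1, Tbx21 and Hist1h2ae.

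Of 33 tested genes of glycolysis and the hypoxia response, 5 fell, none rose, and all 33 fold changes were negative, or 32 with RLE size factors (median log2 -0.50, against -0.01 over all genes, 51% of which were negative). Ddit4, a stress-induced inhibitor of mTORC1, stood at 1206, 1291 and 1534 CPM in the isotype mice and 536, 482 and 558 CPM in the anti-ACBP mice. Its levels in the anti-ACBP mice were all less than those of any isotype mouse, and the change was -1.36 ± 0.11 on the log2 scale (SE; edgeR adjusted p = 4.38e-06). Tpi1, the glycolytic triosephosphate isomerase, went from 900, 839 and 911 CPM to 546, 524 and 488 CPM, which is -0.76 ± 0.10 on the log2 scale (SE; adjusted p from edgeR 0.000688).

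Hilpda, a lipid droplet protein induced by low oxygen, went from 475, 456 and 462 to 325, 232 and 268 CPM (log2 -0.75 ± 0.12 SE; edgeR adjusted p = 0.00397). Pgam1, the glycolytic phosphoglycerate mutase, went from 615, 498 and 660 to 416, 364 and 319 CPM (log2 -0.68 ± 0.12 SE; edgeR adjusted p = 0.0139). Pdk1, a kinase that keeps pyruvate out of mitochondria, went from 32.0, 28.3 and 38.3 to 16.3, 18.2 and 8.46 CPM (log2 -1.06 ± 0.23 SE; edgeR adjusted p = 0.0440). No pair of isotype and anti-ACBP mice overlapped in these 3 genes. With a score over 0.2 Pgam1 (log2 -0.64) and Pdk1 (-0.93) did not pass, at fold changes close to those above (edgeR adjusted p = 0.154 and 0.373). Both calls were also lost when single mice were left out (highest adjusted p 0.118 without one of isotype 3, anti-ACBP 2 or 3, and 0.192 without isotype 3 or any anti-ACBP mouse). The glucose transporter Slc2a1 (log2 -1.06; edgeR adjusted p = 0.0663) and the glycolytic enzyme Aldoa (-0.43; 0.0643) did not pass.

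**Figure D3:**
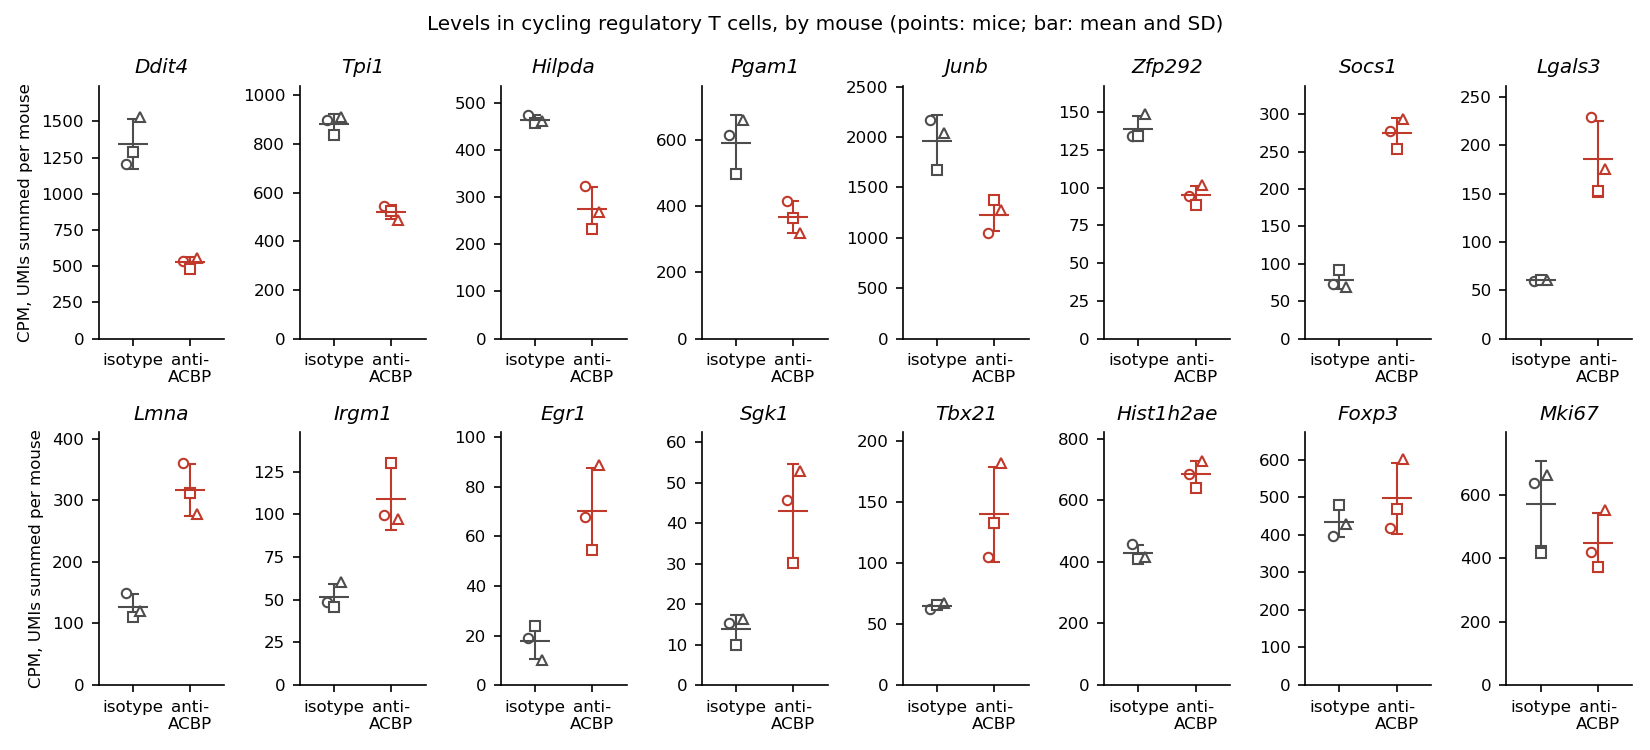
CPM per mouse of 16 genes in cycling regulatory T cells (y axes start at 0; symbols are the 3 isotype and 3 anti-ACBP mice, horizontal marks means, bars SD). The 6 genes that fell and the 8 that rose were taken from genes that passed, most under a rule that required no overlap. They show no overlap between groups, as did 14.8% of all genes tested, while Foxp3 and Mki67 overlap.

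The promoters of these 5 genes were searched for ACGTG, the core of the element bound by hypoxia-inducible factors, on both strands. It was found in 3 of the 5 (60%), against 30.8% of the tested genes with a window and 19.6% of all 32851 windows. It was also found for 2 of the 4 cytokine feedback genes that rose (50%). Of G2M control genes 9 of 20 had it (45%), and of spindle and division genes 17 of 70 (24.3%). The matches in the genes that fell are a description of sequence only. They are shown with 60 bases around the match in capitals, for Ddit4 at chr10:59951928-59951987 on the minus strand, Pgam1 at chr19:41911727-41911786 and Hilpda at chr6:29272553-29272612, both on the plus strand.
Ddit4: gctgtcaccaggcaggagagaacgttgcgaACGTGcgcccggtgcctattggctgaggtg
Pgam1: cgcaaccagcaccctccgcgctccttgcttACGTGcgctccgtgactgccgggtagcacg
Hilpda: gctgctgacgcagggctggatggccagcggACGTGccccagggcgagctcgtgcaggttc

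The other 4 genes that fell were not in the glycolysis and hypoxia list. Junb, an AP-1 transcription factor subunit, went from 2172, 1674 and 2040 to 1047, 1373 and 1273 CPM (log2 -0.67 ± 0.12 SE; edgeR adjusted p = 0.0122). Rlf, a zinc finger protein, went from 59.2, 49.7 and 61.7 to 33.9, 18.9 and 27.5 CPM (log2 -1.08 ± 0.19 SE; edgeR adjusted p = 0.0109). Alkbh5, an RNA demethylase, fell by 0.76 ± 0.16 and Zfp292 by 0.57 ± 0.12 on the log2 scale (SE; edgeR adjusted p = 0.0308 and 0.0395). Each of these 4 calls was lost without isotype mouse 3, among others (highest adjusted p 0.0809, 0.127, 0.254 and 0.250).

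Of 34 tested genes of cytokine feedback and the interferon-gamma response, 4 rose and none fell (median log2 0.19, against -0.01 over all genes). Socs1, an inhibitor of JAK kinases, stood at 72.9, 92.1 and 69.5 CPM in the isotype mice and 278, 253 and 294 CPM in the anti-ACBP mice. No anti-ACBP value came near an isotype value, and the change was 1.82 ± 0.13 on the log2 scale (SE; edgeR adjusted p = 4.82e-07), the smallest adjusted p of all genes tested. It was 1.74 to 1.93 with any mouse left out and 1.93 with a score over 0.2.

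Irgm1, an interferon-inducible GTPase, went from 48.4, 45.9 and 60.3 to 99.8, 130 and 97.3 CPM (log2 1.11 ± 0.15 SE; edgeR adjusted p = 0.000946). Cd274, which encodes the PD-1 ligand PD-L1, went from 49.0, 40.7 and 39.3 to 92.9, 72.0 and 95.1 CPM (log2 0.96 ± 0.15 SE; edgeR adjusted p = 0.00394). Igtp, another of these GTPases, went from 264, 264 and 248 to 311, 439 and 450 CPM (log2 0.61 ± 0.13 SE; edgeR adjusted p = 0.0364). The Cd274 call was lost without anti-ACBP mouse 1 (adjusted p = 0.0699) or with a score over 0.2 (log2 0.80; adjusted p = 0.144), and the Igtp call without any one of isotype 3, anti-ACBP 2 or 3 (highest adjusted p 0.271). The antigen transporter gene Tap1 (log2 0.12; edgeR adjusted p = 0.835) did not pass.

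The Igtp promoter, chr11:58199481-58199540 on the plus strand, held the gamma-activated sequence TTCNNNGAA, bound by STAT factors and shown here in capitals. Of the 4 genes that rose, 1 had it within the window (25%), against 8.18% of the tested genes with a window.
Igtp: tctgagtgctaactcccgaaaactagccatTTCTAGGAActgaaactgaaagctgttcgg

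Of 30 tested genes of early activation, 3 rose and 1, Junb, fell (median log2 0.40). In cells with no Cd8 UMI none of 29 passed, and 26 had positive fold changes (median 0.44). With a score over 0.2, 1 of 28 rose and 2 fell (median 0.36). Egr1, induced by receptor signals, stood at 18.8, 24.0 and 9.92 CPM in the isotype mice and 67.8, 54.5 and 88.8 CPM in the anti-ACBP mice, with the lowest anti-ACBP value above the highest isotype value (log2 1.93 ± 0.27 SE; edgeR adjusted p = 0.00734). Fosb, an AP-1 subunit, went from 15.2, 11.6 and 6.38 to 29.5, 53.8 and 44.4 CPM (log2 1.82 ± 0.31 SE; edgeR adjusted p = 0.0202). Atf3, a stress-induced factor of the same superfamily, went from 2.04, 2.57 and 1.77 to 11.3, 12.9 and 6.34 CPM (log2 2.38 ± 0.41 SE; edgeR adjusted p = 0.00725). Jun (0.31) and Nr4a1 (0.39), both receptor-induced transcription factors, did not pass. With a score over 0.2, Egr1 was at 1.66 and did not pass (adjusted p = 0.0786). With cells thinned to 3000 UMIs, Fosb was at 0.89 and did not pass (adjusted p = 0.494). Calls were lost without single anti-ACBP mice for Egr1 (mouse 1, 0.103) and Fosb (mouse 2 or 3, up to 0.157) and without isotype 3, anti-ACBP 1 or 2 for Atf3 (up to 0.0998). Egr1 also did not pass without the largest regulatory T cell clone of each mouse (log2 1.57; edgeR adjusted p = 0.116). The same held with equal numbers of S and G2M cells (1.81; 0.0686) and in cells with no Cd8 UMI (1.97; 0.147). Atf3 was not tested with a score over 0.2 or in cells with no Cd8 UMI, where it fell below the count filter.

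Lgals3, which encodes the sugar-binding galectin-3, had 59.9, 60.9 and 61.0 CPM in the isotype mice and 229, 153 and 176 CPM in the anti-ACBP mice. The isotype mice were nearly equal and all anti-ACBP mice were higher (log2 1.63 ± 0.14 SE; edgeR adjusted p = 5.11e-06). Lmna, the gene of nuclear lamins A and C, went from 150, 110 and 120 to 360, 312 and 277 CPM (log2 1.32 ± 0.13 SE; edgeR adjusted p = 3.56e-05). It was the 1 of 12 tested nuclear envelope genes to pass, and Lmnb1, which encodes lamin B1, did not.

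Of 18 tested nutrient and growth signalling genes, 2 rose. Sgk1, a kinase downstream of PI3K and mTORC2, went from 15.2, 9.86 and 16.3 to 45.8, 30.3 and 52.9 CPM (log2 1.54 ± 0.24 SE; edgeR adjusted p = 0.00329). Irs2, an adaptor of insulin receptors, went from 5.87, 9 and 7.44 to 19.5, 17.4 and 19.0 CPM (log2 1.40 ± 0.28 SE; edgeR adjusted p = 0.0241). Sgk1 did not pass without anti-ACBP mouse 1 (adjusted p = 0.0762), and Irs2 passed in 1 of 6 such fits, the one without isotype mouse 2 (highest adjusted p 0.178). With a score over 0.2 Irs2 was at 0.90 (adjusted p = 0.752).

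Serpine2, a protease inhibitor, went from 10.8, 15.0 and 4.96 to 28.3, 34.1 and 29.6 CPM (log2 1.59 ± 0.30 SE; edgeR adjusted p = 0.0202), a call lost without any one anti-ACBP mouse (highest adjusted p 0.205). In cells with a Foxp3 UMI its log2 fold change was 0.13 (adjusted p = 1), and with a score over 0.2 it was 0.94 (0.879). Spp1, which encodes the secreted protein osteopontin, had 4, 0 and 0 UMIs in the isotype mice and 12, 47 and 3 in the anti-ACBP mice, and most of the last group's UMIs came from mouse 2. Its fitted log2 fold change of 5.76 (edgeR adjusted p = 0.0402) rests on those counts and was lost without any one isotype mouse or anti-ACBP mouse 3 (highest adjusted p 0.378). Trp53inp1, a p53-induced gene, was the 1 of 33 tested p53 and apoptosis genes to pass. It went from 32.5, 30.4 and 34.7 to 55.3, 50.7 and 67.7 CPM (log2 0.78 ± 0.16 SE; edgeR adjusted p = 0.0268), and it passed in 1 of 6 fits with a mouse left out (highest adjusted p 0.133). With a score over 0.2 it was at 0.50 (adjusted p = 0.755).

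None of 80 spindle and division genes, 28 G2M control genes and 59 DNA replication genes passed, and 70 of the 80 spindle genes had negative fold changes (median log2 -0.33). Mki67 was at 638, 418 and 664 CPM in the isotype mice and 421, 373 and 554 CPM in the anti-ACBP mice, and Top2a at 480, 290 and 446 against 337, 308 and 366 CPM. Both overlapped between groups (log2 -0.38 ± 0.20 and -0.28 ± 0.17 SE; edgeR adjusted p = 0.664 and 0.697). Stmn1 (0.19 ± 0.11 SE) and Ran (-0.22 ± 0.15 SE) did not pass either. With a score over 0.2 the spindle median was -0.15 and the replication median moved from 0.05 to 0.19, beside the larger part of low-score cells in the anti-ACBP mice given above, whose part in these medians was not tested.

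Replication histone genes leaned the other way. Of 21 tested, 17 had positive fold changes (median log2 0.33), and with a score over 0.2 all 21 did (median 0.53), but 1 and then 2 passed. In S cells 19 of 20 were positive (median 0.66) and in G2M cells 15 of 20 (0.23). In cells with no Cd8 UMI 13 of 21 were positive (median 0.18) and none passed. Hist1h2ae, which encodes a histone H2A, went from 459, 408 and 417 CPM to 685, 641 and 729 CPM, each anti-ACBP mouse above each isotype mouse (log2 0.67 ± 0.10 SE; edgeR adjusted p = 0.00329). Its log2 fold change was 0.11 without cells marked FALSE in the cell table's DF1 column (adjusted p = 0.970) and 0.21 with cells thinned to 3000 UMIs (0.679). It was 0.69 in cells with no Cd8 UMI (0.0519) and 0.61 in cells with more Cd4 than Cd8 UMIs (0.207). In G1 cells 12 of 13 tested histone genes had negative fold changes (median -0.43).

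**Figure D4:**
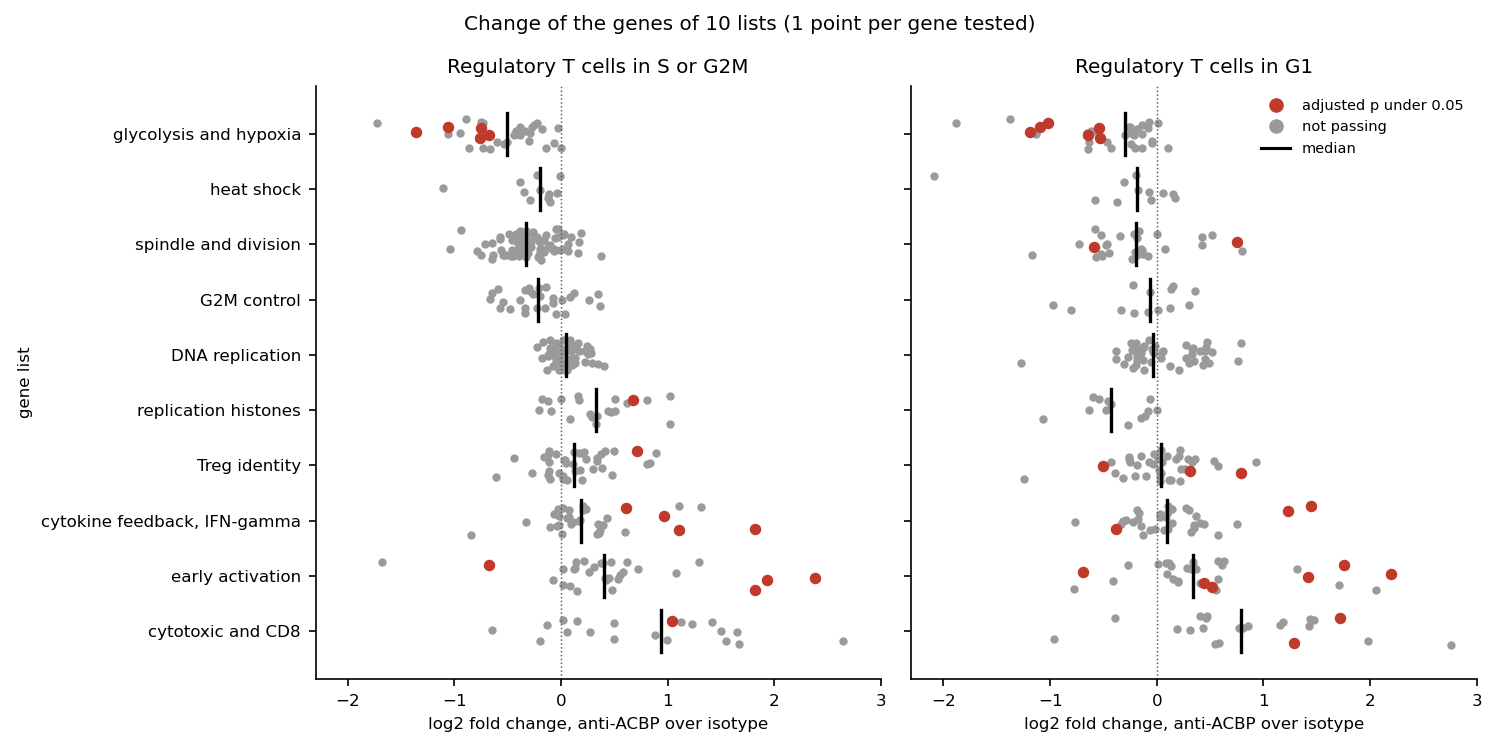
Log2 fold change with anti-ACBP (x axis) of every tested gene of 10 lists, in cycling (left) and G1 (right) regulatory T cells; red points passed at an adjusted p under 0.05 and black lines are medians. All 33 glycolysis and hypoxia genes lie below 0 in cycling cells (32 with RLE size factors, not drawn), and the histone median is 0.33 in cycling and -0.43 in G1 cells.

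Of 39 tested genes of regulatory T cell identity, 1 rose and none fell (median log2 0.12). Foxp3 was at 396, 480 and 429 CPM in the isotype and 419, 470 and 600 CPM in the anti-ACBP mice, with overlap (log2 0.17 ± 0.13 SE; edgeR adjusted p = 0.759). The gene that rose was Socs2, a feedback inhibitor of STAT5 signalling, from 73.7, 81.4 and 64.2 to 141, 107 and 101 CPM (log2 0.71 ± 0.14 SE; edgeR adjusted p = 0.0268), a call lost without isotype 3, anti-ACBP 1 or 2 (highest adjusted p 0.247) and with a score over 0.2 (log2 0.75; 0.0809). Ikzf2 (log2 -0.44; edgeR adjusted p = 0.0837) and Il10 (0.89; 0.667) did not pass.

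Dbi was at 331, 333 and 347 CPM in the isotype mice and 300, 320 and 300 CPM in the anti-ACBP mice. The groups did not overlap, but the difference of -0.13 ± 0.10 (SE) on the log2 scale did not pass (edgeR adjusted p = 0.765). The antibody acts on the protein, so this level checks no label. None of the 6 tested genes of acyl-CoA binding proteins passed, and 11 of 11 heat shock genes had negative fold changes (median -0.20) with none passing.

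Markers of CD8 cells moved with the treatment group. Cells with more Cd8 than Cd4 UMIs made up 4.90%, 1.92% and 6.17% of cycling regulatory T cells in the isotype mice and 8.61%, 17.9% and 12.5% in the anti-ACBP mice (exact permutation test, p = 0.1). G1 regulatory T cells had the same order, at 3.73% ± 1.41 and 5.71% ± 0.26 without overlap (SD, n = 3; exact permutation test, p = 0.1). Of 20 tested cytotoxic and CD8 genes, 17 had positive fold changes (median log2 0.94), among them Cd8a (2.65; edgeR adjusted p = 0.309) and Gzmb (0.50; 0.742), and 1 passed. That was Tbx21, which encodes the type 1 transcription factor T-bet, from 62.3, 65.1 and 67.3 to 105, 133 and 182 CPM (log2 1.04 ± 0.16 SE; edgeR adjusted p = 0.00394). In cells with more Cd4 than Cd8 UMIs the list's median was 0.11, and Tbx21 was at 1.00 and did not pass (adjusted p = 0.0611). In cells with no Cd8 UMI the median was 0.51, with 10 of 14 positive, and Tbx21 was at 0.83 (0.0519). The summed level of all 25 genes of the list ran from 2939 to 6445 CPM in the isotype and from 5754 to 7037 CPM in the anti-ACBP mice. In G1 cells 20 of 22 tested genes of the list had positive fold changes (median 0.79), and 2 passed.

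In those CD4-marked cells 41 genes passed, 29 of them among the 50, and Socs1, Lgals3, Lmna, Irgm1, Cd274, Ddit4, Tpi1, Hilpda and Pgam1 were still called. Egr1 (log2 1.90; edgeR adjusted p = 0.144), Pdk1 (-1.07; 0.0992), Socs2 (0.69; 0.0999) and Trp53inp1 (0.71; 0.195) did not pass there, at fold changes close to those in all cells, nor did Irs2 (1.07; 0.452) and Serpine2 (1.22; 0.695). In cells with no Cd8 UMI at all, 31 genes passed and 23 of the 50 were among them. With a score over 0.2, 28 genes passed. Of the 50, 48 were tested there, 21 were still called and 47 kept their sign. The cell table has a DF1 column that no source used here explains. Cells marked FALSE in it were 30.5%, 43.5% and 11.4% of cycling cells in the isotype and 19.2%, 17.9% and 12.5% in the anti-ACBP mice. Without them 46 genes passed, 32 of them among the 50, and Hilpda (log2 -0.71; edgeR adjusted p = 0.168), Serpine2 (1.81; 0.197) and Tbx21 (1.03; 0.0804) did not. Cells with 2 or more TRB chains were 4.10% ± 3.12 and 5.71% ± 3.35 of typed cycling cells (SD, n = 3), and 49 genes passed without them, 44 of them among the 50. With cells thinned to 3000 UMIs 36 genes passed, 19 of them among the 50, and Hilpda (-0.51; 0.105) and Irgm1 (1.05; 0.105) did not. Ddit4, Tpi1, Socs1, Lgals3 and Lmna passed in all of these cell sets, with a score over 0.2 and with any mouse left out.

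S and G2M cells were also tested apart, which keeps their mix out of the comparison. In S cells 29 of 7833 genes passed (0.37%), 24 higher (0.306%) and 5 lower (0.0638%), and 13.6% of the genes tested had groups that did not overlap. In G2M cells 51 of 7199 passed (0.708%), 41 higher (0.57%) and 10 lower (0.139%), and 15.5% did not overlap. The 16 genes that passed in both kept their direction. Ddit4 changed by -1.38 in S and -1.32 in G2M, Socs1 by 1.77 and 1.93, Lgals3 by 1.46 and 1.88 and Lmna by 1.28 and 1.33 (log2; edgeR adjusted p below the threshold in each). In G2M cells 8 of 30 tested glycolysis and hypoxia genes fell, in S cells 3 of 32. Egr1 passed in S (2.73; edgeR adjusted p = 0.000747) and not in G2M (1.09; 0.277), a difference between phases that was not tested. The counts were 8 (S) and 32 (G2M) without isotype mouse 3, 50 in S without isotype mouse 2, and 23 in G2M without anti-ACBP mouse 2.

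Regulatory T cells in G1 are the cells most like the cycling ones and come from the same mice. In them 161 of 9469 genes passed (1.7%), 89 higher (0.94%) and 72 lower (0.76%), with 22% of the genes tested not overlapping between groups. Of the calls, 20 were shared, which is 40% of the cycling and 12.4% of the G1 calls. Ddit4 changed by -1.36 in cycling and -1.19 in G1 cells, Sgk1 by 1.54 and 1.63, Junb by -0.67 and -0.69, and Pdk1 by -1.06 and -1.09. The glycolysis and hypoxia median was -0.50 in cycling and -0.30 in G1 cells. Of the 50 genes, 49 had the same sign in G1, and Hist1h2ae did not (0.67 and -0.55; the difference did not pass, adjusted p = 0.143).

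**Figure D5:**
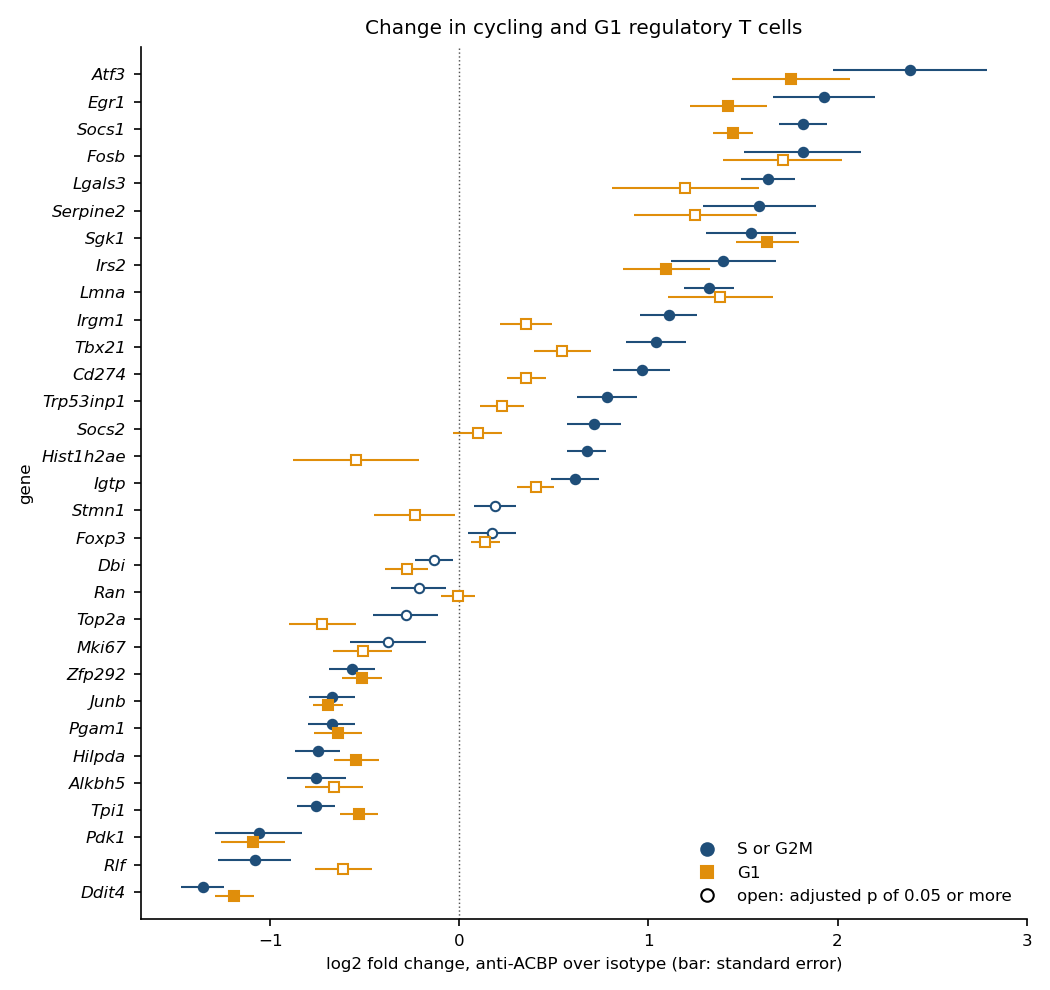
Log2 fold change with anti-ACBP and its standard error in cycling (circles) and G1 (squares) regulatory T cells for 31 named genes, Spp1 left out for its few UMIs; filled symbols passed. Ddit4, Junb, Pdk1 and Sgk1 lie close together, while Irgm1 is at 1.11 in cycling and 0.35 in G1 cells.

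The difference between the changes in cycling and in G1 cells was tested with the mouse as a block, and 32 of 9915 genes passed (0.323%), 16 in each direction (0.161%). Of the 50 genes called in cycling cells, 2 were among them, Irgm1, which differed by 0.75 ± 0.15 (SE; edgeR adjusted p = 0.00901), and Ms4a4b, a membrane protein gene named after its values were seen. Among genes with many UMIs in every mouse, the integrin chain Itgb7 differed by 0.54 ± 0.08, the antiviral protein Bst2 by 0.60 ± 0.10, the arginine synthesis enzyme Ass1 by 0.53 ± 0.09 and the interferon-induced gene Phf11b by 0.70 ± 0.12 (SE; edgeR adjusted p = 0.000909 to 0.00202). Bst2 changed by 0.07 in cycling and -0.58 in G1 cells. Tubb4b, a beta tubulin, and Tex30 differed the other way, by -0.69 ± 0.12 and -0.93 ± 0.15 (SE), with 0.06 and -0.15 in cycling against 0.75 and 0.75 in G1 cells.

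Cytokine genes of large fitted difference rested on few mice. Il2 had 2, 42 and 0 UMIs in isotype and 1, 0 and 0 in anti-ACBP cycling cells, against 24, 59 and 1 and 580, 185 and 2 in G1 cells. Csf2, which encodes GM-CSF, had 64, 48 and 1 and 0, 0 and 2 UMIs in cycling, and 43, 104 and 0 and 365, 133 and 25 in G1 cells. These cytokine UMIs of anti-ACBP mice 1 and 2 thus lay almost wholly in G1 cells. Il2 passed in 2 of 6 fits with a mouse left out. Without anti-ACBP mouse 2 the count was 10, and Bst2, Ass1, Phf11b, Tubb4b and Csf2 did not pass (edgeR adjusted p = 0.0686, 0.0634, 0.0634, 0.0801 and 0.0535). Without the block edgeR called no gene, and 398 of the 9915 had an unadjusted p under 0.05. No other tool was run on this difference.

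The cycling conventional CD4 cells of cluster 4, taken with more Cd4 than Cd8 UMIs and no Foxp3 UMI, gave 383 cells for a second comparison. In them 7 of 6881 genes passed (0.102%), 5 of them lower (0.0727%), and all 5 were glycolysis and hypoxia genes. That list had 29 of 30 negative fold changes and a median of -0.58, beside -0.50 in the cycling regulatory T cells. The change with anti-ACBP differed between them and cycling regulatory T cells in 8 of 8620 genes (0.0928%), 7 toward higher values in the regulatory T cells (0.0812%) and 1 toward lower (0.0116%). Socs1 changed by 1.82 in the regulatory and 0.41 in the conventional cells, a difference of 1.39 ± 0.19 (SE; edgeR adjusted p = 0.00204), which also passed without the block (0.0277) and with any mouse left out. Tbx21 (1.36 ± 0.23), Ramp3, a receptor partner protein (1.19 ± 0.20), and Klrc1, the inhibitory receptor NKG2A (1.22 ± 0.22), differed in the same direction (SE; edgeR adjusted p = 0.0169, 0.0169 and 0.0433), and Serpina3f, a protease inhibitor, in the other (-2.74 ± 0.53 SE; 0.0467). These 4 calls were lost without isotype mouse 1 and without anti-ACBP mouse 3, among others (highest adjusted p 0.171, 0.227, 0.228 and 0.431), and the count was 2 without anti-ACBP mouse 3, 5 without any one of isotype 1, isotype 3 or anti-ACBP 2, 15 without anti-ACBP mouse 1 and 17 without isotype mouse 2. Beside Tbx21 and Klrc1, 18 of 22 cytotoxic and CD8 genes had a positive difference (median 1.08), 2 of them passing. The Cd4 rule was applied to the conventional cells only, so a filtered class was compared with an unfiltered one. With it the list's median change in cycling regulatory T cells was 0.11, against 0.94 without it. The part of CD8 markers in these differences was not tested.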

How the data were processed

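Per the labels' protocols, libraries were 5' single-cell expression and receptor libraries of sorted tumour T cells from 3 isotype and 3 anti-ACBP mice. The deposited matrices hold whole-number UMI counts per gene and barcode, which sum to the totals in the cell table. They also store 157329 to 382366 entries of 0 per library, and no source used here says whether counts were altered before deposit, so 0 UMIs means 0 in these matrices. The deposited cell table holds cluster, phase and phase score per cell, which were used as deposited. Per the submitters' processing notes, Cell Ranger 7.0.0, Seurat and mm10 were used. No source used here says how clusters were made or whether background RNA was removed.

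Counts were summed per mouse and class, without 660 receptor and immunoglobulin segments, and compared in R 4.3.3 by the robust quasi-likelihood test of edgeR 4.0.16, after filterByExpr and TMM scaling, with Benjamini-Hochberg adjustment at 0.05. CPM in tests are TMM-scaled. DESeq2 1.42.0, size factors, filters and cell subsets were tried as alternatives. Scripts were tested on simulated data. Phases were scored again with scanpy 1.11.5 and the cycle genes of Seurat 5.3.0. No doublet caller was run. Cells with scores over 0.05 or over 0.2 or with no Cd8 UMI were alternatives chosen after seeing the data.

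Named genes were Foxp3, Mki67, Top2a, Stmn1, Ran and Dbi, up to 10 higher and 10 lower of largest change that passed, reached 10 CPM and did not overlap, up to 4 passing members per list, and 5 per direction of each difference, without mt- and numbered genes. Other genes named were chosen after their values were seen. Members and lists were chosen with earlier results of these data known. Same-numbered mice did not deviate together (correlations 0.14, -0.0586 and 0.0125).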

Additional observations from a re-analysis of the deposited data

Results flagged for a closer look

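The change with anti-ACBP differed between cycling and G1 regulatory T cells, by the test of the difference itself, for 10 named genes. Toward cycling cells these were Hdc (5.67 on the log2 scale), Itgb7 (0.54), Bst2 (0.60), Ass1 (0.53) and Phf11b (0.70). Toward G1 cells they were Cxcl3 (-6.02), Tex30 (-0.93), Tubb4b (-0.69), Csf2 (-6.49) and Il2 (-7.53). None of these 10 genes passed without the mouse as a block, and Il2 passed in 2 of 6 fits with a mouse left out. Of the UMIs of Hdc, the histamine-making enzyme, in cycling cells, 202 came from anti-ACBP mouse 1, 94.8% of them, and without that mouse the difference did not pass (edgeR adjusted p = 0.519). Cxcl3, a neutrophil-attracting chemokine, had 60, 21 and 2 UMIs in isotype and 2, 1 and 0 in anti-ACBP cycling cells, against 9, 10 and 3 and 91, 34 and 5 in G1 cells.

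The change differed between cycling regulatory and cycling conventional CD4 cells for Spp1 (7.39), Socs1 (1.39), Ramp3 (1.19), Tbx21 (1.36), Klrc1 (1.22) and Serpina3f (-2.74). The conventional cells alone were taken by more Cd4 than Cd8 UMIs. Spp1 had 90, 26 and 7 UMIs in isotype and 9, 6 and 2 in anti-ACBP conventional cells, the opposite order to the regulatory cells.

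The cycling share in expanded minus single-cell clones was above 0 in all 3 isotype and below 0 in all 3 anti-ACBP mice, and its means differed by -12.0 percentage points (exact permutation test, p = 0.1, the smallest possible). This comparison was chosen after the values were seen, and the binomial intervals for expanded and single-cell clones overlapped in every anti-ACBP mouse. Over all 6 mice the share in expanded minus single-cell clones averaged 2.58 percentage points (exact sign-flip test, p = 0.375).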

How the results depend on the processing

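The lower share of regulatory T cells in S or G2M kept its direction under all alternatives run, by 10.6 to 15.6 percentage points under other cell sets or scores and by -16.9 to -13.5 with a mouse left out. The share in expanded clones differed by -18.6 to -11.4 with a mouse left out. It differed by -4.87 with each mouse thinned to 227 cells (exact permutation test, p = 0.7). With clones set by both TRB and TRA it differed by -19.97, without overlap (exact permutation test, p = 0.1). The G2M share among cycling cells differed by -11.1 to -3.79 with a mouse left out and turned to 1.16 when phases were scored again on thinned cells, and the difference in median UMIs per cycling cell, -1876, ran from -4068 to 1111 and turned without isotype mouse 1. Genes called in cycling cells numbered 76 with DESeq2, 195 with no filter, 28 with a score over 0.2, 31 with no Cd8 UMI and 25 to 117 with a mouse left out. With a score over 0.2, 21 of the 28 were among the 50 genes. Without the largest regulatory T cell clone of each mouse 37 genes were called in cycling cells, 36 of them among the 50. With no filter 128 genes were called in S, 130 in G2M and 593 in G1, and with a mouse left out 8 to 50, 23 to 72 and 46 to 268. The replicate number as a block gave 102 calls in cycling and 53 in S cells, where the numbers only name the mice, and kept all 50 genes. The difference between cycling and G1 cells had 74 calls with no filter, 0 without the block and 10 to 43 with a mouse left out; that against conventional cells had 35, 1 and 2 to 17. Of single named genes, Stmn1 turned sign with cells thinned to 3000 UMIs (-0.23). The causes were not tested. Depth in anti-ACBP mouse 3 limits genes of low level.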
